A study of Saccharomyces cerevisiae with 12 samples.

Results

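The genes described are those for the proteins of the large subunit of the cytosolic ribosome in the budding yeast Saccharomyces cerevisiae, taken as 60 listed genes that run from RPL1A to RPL36A and include RPP0. The rule that lists them uses the systematic names of their open reading frames and no measured value, and 56 of them had a probe among the 5974 probes of the arrays. RPL2A, RPL8A, RPL11B and RPL22B had no probe here and are not analysed. In the list, 10 genes stand without a paralog and the rest form 25 A/B pairs, of which 21 had a probe for both copies. Probe sequences were not used here, and a probe for 1 copy of a pair can bind the transcript of the other, so values of paralogs may be mixed to a degree that was not tested.

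The series compared BY4741, a laboratory strain obtained from EUROSCARF, with cells labelled as its ixr1 null derivative, to ask what Ixr1, an HMG-box protein that binds DNA, does when oxygen is low. All cultures grew at 30 C in synthetic complete medium that held 2% glucose. The air groups grew with air, the overnight hypoxia groups grew in anaerobic jars below 1% oxygen with 20 mg/l of ergosterol and 0.5% Tween 80, and the shift groups grew in air until the OD600 was 0.8 and then had nitrogen bubbled through for 3 hours. Each of the 3 conditions and 2 genotypes has 2 arrays, lettered A and B, which makes 12 arrays in 6 groups. The lipid supplements went with overnight hypoxia alone, so their effect and that of low oxygen cannot be told apart. The labels do not say whether A and B came from separate cultures, so the p-values rest on a spread between arrays that may be purely technical.

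A yeast ribosome is built from a small and a large subunit, and the large subunit holds the site where amino acids are joined, the tunnel through which the new chain leaves and the stalks that receive elongation factors and release tRNA. Most of its proteins are encoded by a pair of genes that arose in an ancient duplication of the genome, and the copies of a pair make proteins that are identical or nearly so. In yeast these genes are usually transcribed together, through Rap1, Fhl1, Ifh1 and Sfp1, in step with nutrients and growth rate.

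The values are radioactive hybridisation intensities of cDNA primed with oligo-dT, with 1 value per open reading frame and a mean near 1 on every array. Below, "signal" is the deposited value on its linear scale, and "log2 difference" is the difference between group means of log2 signal after quantile normalization of the arrays, given with its SE. That SE comes from 1 estimate of spread per gene over all 12 arrays, so the shift arrays also enter the SE of hypoxia against air. A gene was called when its limma p, adjusted by Benjamini-Hochberg over all probes tested in the comparison, was under 0.05. A signal of 0 was treated as missing, and 47 of the 56 genes had none. In the other 9 genes, RPL16B and RPL17B were at 0 on 7 arrays each, RPL7A and RPL7B on 2 each, and RPL1B, RPL4A, RPL14B, RPL23B and RPL35B on 1 each.

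The arrays themselves set limits. The share of all probes at 0 ran from 1.16% to 14.0% on 10 arrays and was 58.4% on the A array and 30.1% on the B array of the shift in cells labelled ixr1 null. The IXR1 probe gave signals of 7.03 to 8.11 on the wild type air arrays and 8.64 to 9.75 on those labelled ixr1 null, and it was not lower under that label in hypoxia either (0.399 and 0.441 against 0.608 and 1.13). After the shift the genotypes overlapped. Whether the probe lies in the deleted stretch is not stated, so genotypes are given as labelled. DAN1, a cell wall gene of anaerobic cells, ran from 0.0674 to 0.298 in air and from 1.37 to 5.09 in overnight hypoxia. After the shift it was at 0 on both A arrays and at 2.47 and 7.38 on the B arrays. TDH3, a glycolytic gene, had air signals that split by genotype: 157 (A) and 172 (B) for the wild type, 23.7 (A) and 20.5 (B) under the null label. The brightest probe of the same arrays was at 157 and 201 for the wild type, against 24.5 and 20.8. The top of the range thus differed between the genotypes in air, and what this does to their comparison was not tested. TDH3 gave no more than 0.367 on the low-oxygen arrays. Whether the transcript, the spot or the hybridisation differs where a signal falls that far cannot be told from the processed values, and this holds for RPP0, RPL25 and RPL27A below as well.

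In overnight hypoxia most large subunit genes moved little, and a few moved by a great deal. In the wild type 3 of the 53 genes tested were lower than in air and none was higher: RPP0, RPL27A and RPL30. With the letter of the array as a replicate block the wild type had 5 lower and 2 higher, RPL25 and RPL17A joining the lower genes and RPL4A and RPL35B being the higher ones. RPL4A was also called higher, and RPL25 lower, on the deposited scale, without the dimmest 25% of probes and with the prior variance from tested probes alone. Among the cells labelled ixr1 null 5 of 54 were lower (RPL25, RPP0, RPL27A, RPL17A and RPL9B) and 3 were higher (RPL35B, RPL4A and RPL1B). Within 1 log2 unit of air lay 39 of 53 and 41 of 54 genes. Most probes of the array lay within 1 unit as well. The quartiles of all tested probes were -0.70 and 0.73 in the wild type and -0.91 and 0.64 under the null label. Those of the large subunit genes were -0.84 and 0.15, and -0.85 and -0.08. Over all probes, 6.12% were called lower and 4.39% higher in the wild type, and 5.34% lower and 6.18% higher under the null label. Among the large subunit genes the shares were 5.66% lower and 0.0% higher in the wild type, and 9.26% lower and 5.56% higher under the null label, on 3, 0, 5 and 3 genes.

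As a set, the large subunit genes lay a little below the array. Their median log2 difference in hypoxia was -0.35 in the wild type, where the median of all tested probes was 0.01, and -0.48 under the null label, where it was -0.20. In the wild type 60.4% of them lay below 0 against 49.6% of all probes, and under the null label 75.9% against 57.5%. Their share of the summed signal was 2.95% to 3.40% on the air arrays and 2.18% to 2.74% on the hypoxia arrays. The log2 differences of single genes ran from -7.88 to 3.46 in the wild type and from -7.98 to 8.55 under the null label.

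**Figure D1:**
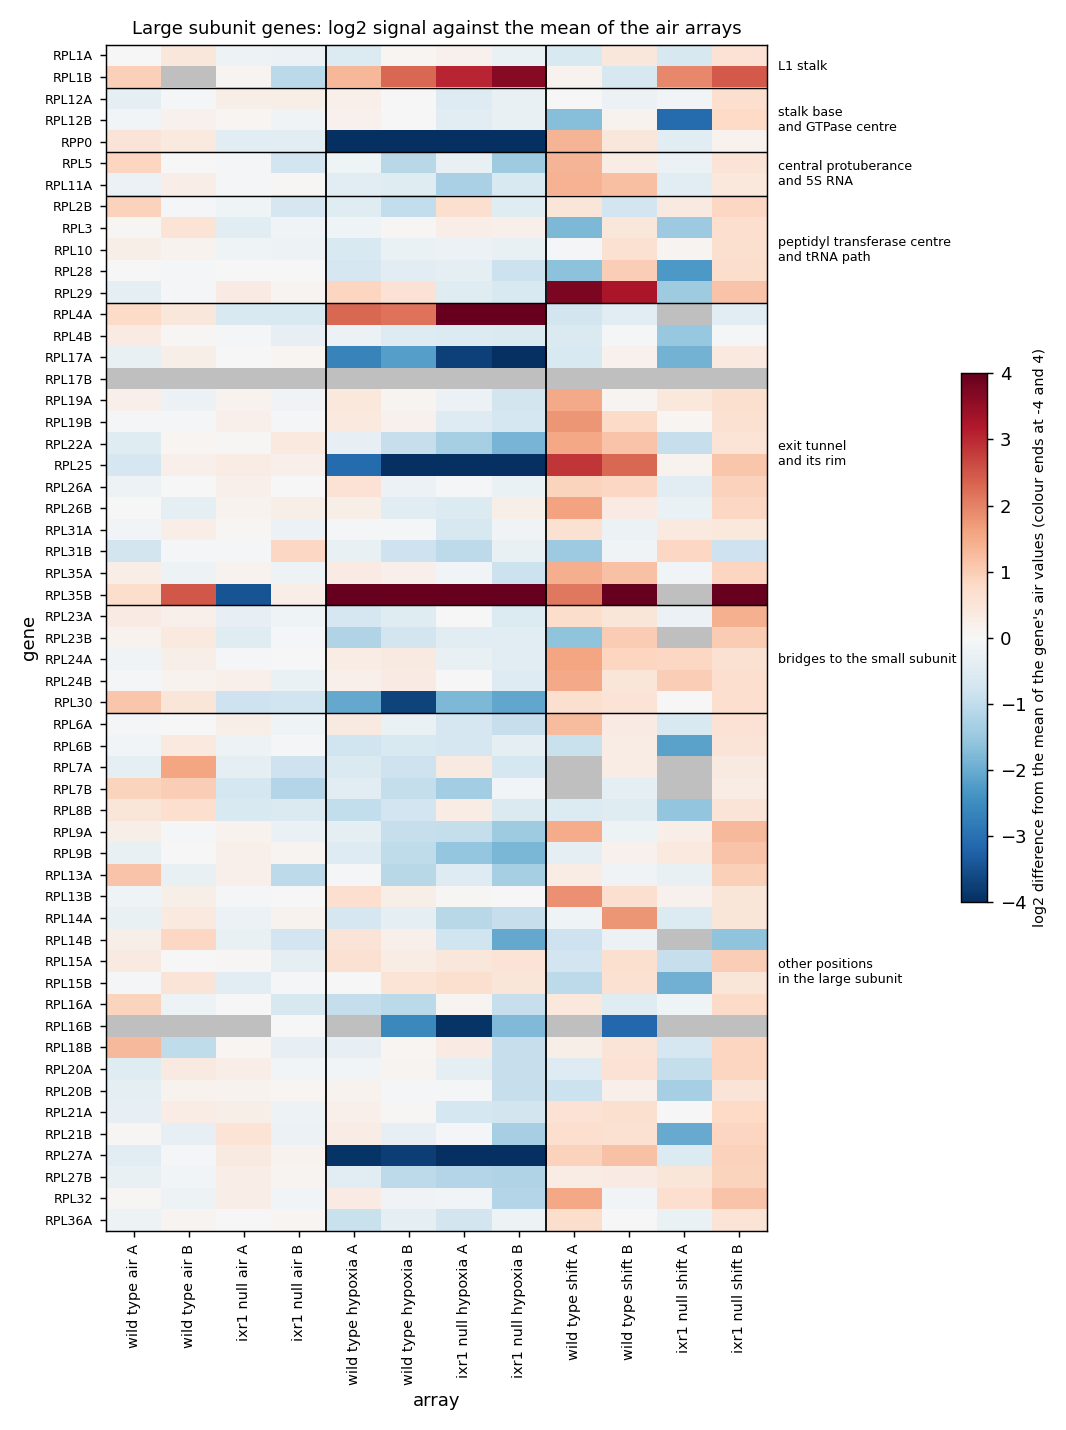
Log2 normalized signal of the large subunit genes, 1 left out, on each of the 12 arrays (columns, by condition), as the difference from the mean of the gene's values on the air arrays, with genes grouped by the place of their protein in the subunit. Grey cells are signals of 0 or genes with no air value, and RPL16B rests on 1 air array. RPP0, RPL27A, RPL25 and RPL17A are dark blue on the hypoxia arrays while most genes are pale, and the shift columns differ between A and B.

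The largest fall in the wild type was at the lateral stalk. RPP0 (YLR340W) encodes the protein that anchors the stalk and carries the acidic P1 and P2 proteins, which recruit elongation factors. Its signal was 7.09 and 7.52 in air and 0.0278 and 0.0402 in overnight hypoxia in the wild type. On the arrays labelled null it was 4.85 and 4.59 in air and 0.169 and 0.0574 in hypoxia. Every hypoxia array lay far below every air array. The log2 differences were -7.88 ± 0.78 (2 arrays against 2, SE from all 12 arrays, limma adjusted p = 0.000467) and -6.54 ± 0.78 (limma adjusted p = 0.000742). Both wild type hypoxia values and 1 of the null values lay under the 10th percentile of positive signals of their arrays, so the size of the fold is not fixed. With such values raised to that percentile, the differences were -7.57 and -5.94.

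The RPL12 pair, which encodes the protein at the base of the same stalk, had no called gene. In the wild type RPL12A (YEL054C) gave 3.39 and 4.27 with air and 5.18 and 4.39 in hypoxia, and RPL12B gave 4.32 and 5.30 with air and 5.51 and 4.70 in hypoxia. Their log2 differences were 0.34 and 0.08 in the wild type and -0.64 and -0.35 under the null label. At the opposite stalk, which helps spent tRNA to leave, RPL1A (YPL220W) had log2 differences of -0.46 and 0.17.

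RPL1B (YGL135W), the other copy of that pair, rose under the null label. Its signal was 0.144 and 0.0634 in air and 0.994 and 1.38 in hypoxia, so the groups did not overlap, and the log2 difference was 3.83 ± 0.63 (limma adjusted p = 0.00523). The lower air value lay under the 10th percentile of its array. With median centring, with the deposited scale or with quantile normalization of positive values alone, the adjusted p was 0.183, 0.0918 and 0.0955. The wild type had the gene at 0 on the B array in air, so it was not tested there, with 0.242 on its A array and 0.280 and 0.590 in hypoxia.

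The proteins that bind 5S ribosomal RNA in the central protuberance showed no call in hypoxia. RPL5 (YPL131W) gave wild type signals of 1.94 and 1.08 in air and 1.08 and 0.608 in hypoxia, with a log2 difference of -1.06 ± 0.66. RPL11A (YPR102C) gave 3.74 and 5.33 in air and 3.38 and 3.25 in hypoxia, with a log2 difference of -0.50. With the null label the differences of the 2 genes were -0.44 and -0.93.

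Genes for proteins at the peptidyl transferase centre and along the tRNA path also showed no call. RPL3 (YOR063W), whose protein reaches toward the catalytic centre, gave 9.13 and 14.4 in air and 8.26 and 9.34 in hypoxia in the wild type, and 7.82 and 9.07 against 12.2 and 10.3 under the null label. Its log2 differences of -0.35 ± 0.83 and 0.53 ± 0.83 lay within their SE. RPL10 (YLR075W), whose protein joins the subunit late in its assembly, had differences of -0.63 ± 0.45 and -0.09 ± 0.45. RPL28 (YGL103W) had -0.53 ± 1.02 and -0.61 ± 1.02. The SE of RPL28 includes its shift arrays, where log2 A minus B was -2.61 (wild type) and -3.0 (null label), beside 0.07 and 0.05 in air. RPL29 (YFR032C-A), which encodes a small basic protein that yeast can live without, had 0.93 ± 0.73 in the wild type and -0.76 ± 0.73 under the null label.

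Around the exit tunnel the picture was mixed, with called genes in both directions. RPL25 (YOL127W) encodes the rim protein to which the signal recognition particle and other factors dock. On the null arrays its signal fell from 3.94 and 3.57 in air to 0.0787 and 0.0144 in hypoxia, a log2 difference of -7.98 ± 1.0 (limma adjusted p = 0.00095). The wild type gave 1.68 and 3.12 in air and 0.358 and 0.164 in hypoxia, again without overlap, and the log2 difference of -3.48 ± 1.00 was just outside the threshold (limma adjusted p = 0.0578, or 0.0392 with the prior variance from tested probes alone and 0.0174 with the replicate block). The wild type fall was also called with the floor, on the deposited scale and without the dimmest 25% of probes (limma adjusted p = 0.00582, 0.044 and 0.0306). The lowest null value was under the 10th percentile of its array, and with the floor the null difference was -6.28.

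RPL17A (YKL180W), whose protein lines the narrow part of the tunnel, followed the same order. Its wild type signal was 5.79 and 8.95 in air and 1.26 and 1.81 in hypoxia, and under the null label it was 8.14 and 8.31 in air and 0.690 and 0.488 in hypoxia. The hypoxia arrays were below the air arrays in each genotype. The log2 difference was -4.21 ± 0.73 under the null label (limma adjusted p = 0.00523). In the wild type it was -2.41 ± 0.73 and not called (limma adjusted p = 0.0749, or 0.0306 with the replicate block and 0.0433 without the dimmest 25% of probes). None of these values was near the bottom of its array.

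RPL4A (YBR031W) went the other way. Its protein, like that of RPL17A, sends an extension into the tunnel. The signal was 0.327 and 0.399 in air and 7.31 and 8.16 in hypoxia under the null label, and 0.735 and 0.531 in air and 2.13 and 1.98 in hypoxia in the wild type. No hypoxia value overlapped an air value. The log2 difference was 4.86 ± 0.44 under the null label (limma adjusted p = 0.000347) and 1.63 ± 0.44 in the wild type, just outside the threshold (limma adjusted p = 0.0515, or 0.0417 with that other prior and 0.0473 with the replicate block).

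RPL35B (YDL136W) encodes a protein of the tunnel rim and had the largest rise. For the null label its signal was 0.000489 and 0.0202 in air and 1.85 and 2.54 in hypoxia, with a log2 difference of 8.55 ± 1.38 (limma adjusted p = 0.00497). Both air values lay under the 10th percentile, and with the floor the difference was 5.72 (limma adjusted p = 0.0270), so the size of the rise is not fixed. The wild type signal was 0.0308 and 0.0756 in air and 0.373 and 1.17 in hypoxia, a log2 difference of 3.46 ± 1.38 that was not called (limma adjusted p = 0.186, or 0.0196 with the replicate block).

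The other tunnel genes stayed nearer to air. RPL22A (YLR061W) gave 3.86 and 4.52 in air and 1.41 and 1.06 in hypoxia under the null label, a log2 difference of -1.81 ± 0.58 that missed the threshold (limma adjusted p = 0.0857). RPL19A and RPL19B had 0.27 and 0.35 in the wild type and -0.51 and -0.69 under the null label. RPL26A and RPL26B had 0.28 and 0.09 in the wild type and -0.27 and -0.34 under the null label.

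Among genes for proteins that bridge to the small subunit, RPL30 was called. RPL30 (YGL030W) encodes a protein that in yeast also binds its own transcript and limits its splicing. The wild type signal was 1.24 and 0.753 in air and 0.141 and 0.0571 in hypoxia, with no overlap, and the log2 difference was -3.68 ± 0.60 (limma adjusted p = 0.00363). The lower hypoxia value was under the 10th percentile of its array. Arrays labelled null had lower air values, 0.380 and 0.471, and hypoxia values of 0.227 and 0.259, with a log2 difference of -1.12 ± 0.60 (limma adjusted p = 0.313). RPL24A and RPL24B, which encode another bridge protein, had 0.29 and 0.22 in the wild type and -0.31 and -0.21 under the null label.

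Of the genes at other positions, RPL27A (YHR010W) was the one called in each genotype. It gave 2.11 and 2.78 in air and 0.211 and 0.264 in hypoxia in the wild type, and 4.37 and 3.68 in air and 0.108 and 0.118 in hypoxia under the null label. The replicates lay close together and far from the other condition, and no value was under the 10th percentile. The log2 differences were -3.58 ± 0.54 (limma adjusted p = 0.00263) and -5.96 ± 0.54 (limma adjusted p = 0.000231). RPL9B (YNL067W) fell under the null label from 1.32 and 1.25 to 0.440 and 0.444, by a log2 difference of -1.85 ± 0.47 (limma adjusted p = 0.0340). That call was lost under each of the other scalings and without any 1 of its 4 arrays, with adjusted p up to 0.241. RPL32 (YBL092W) and RPL36A (YMR194W) were not called, with differences of 0.17 and -0.61 in the wild type and -0.73 and -0.49 under the null label.

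**Figure D2:**
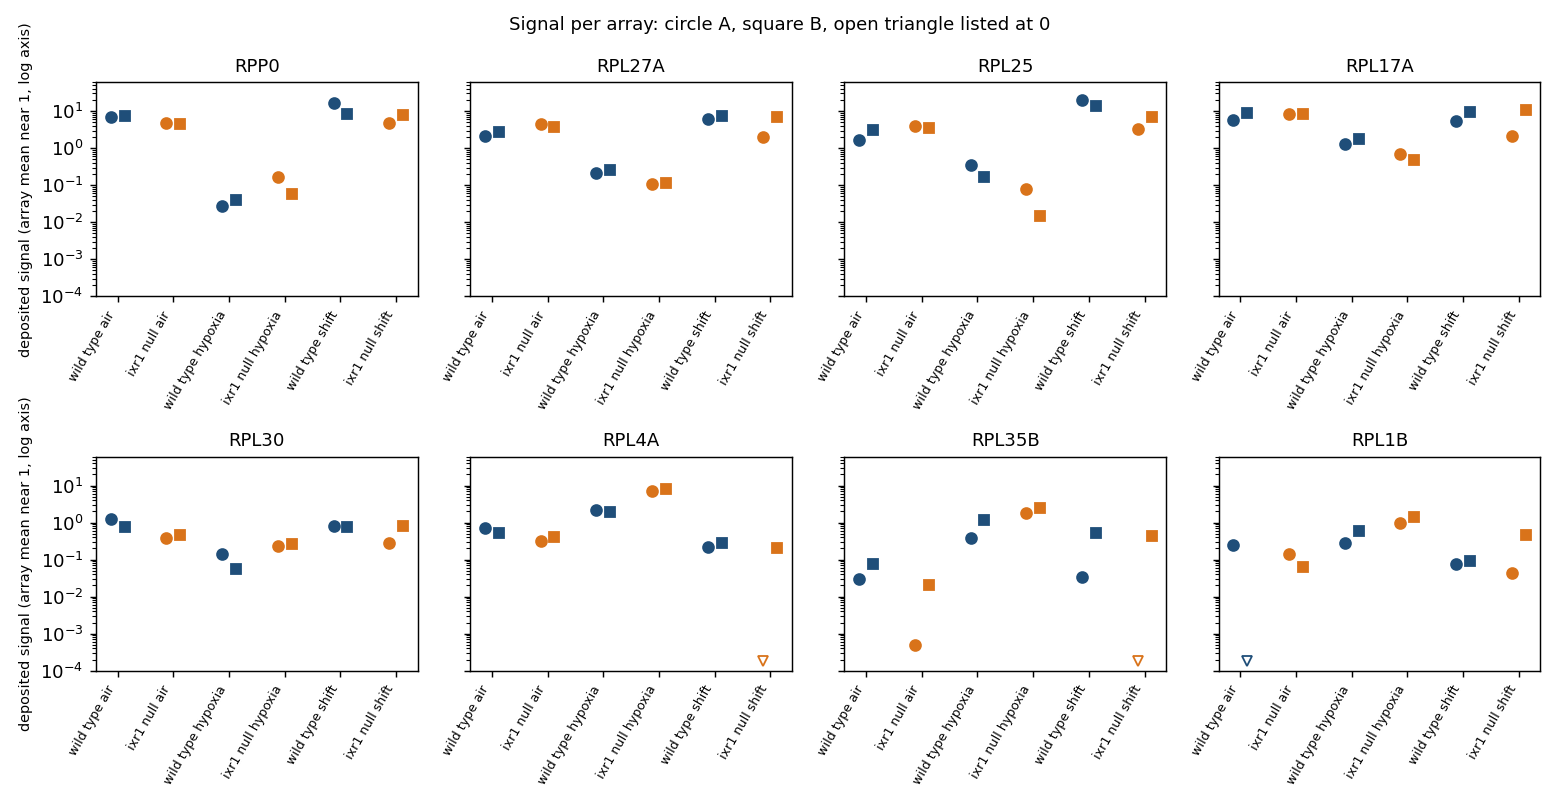
Signal of the 8 genes with the largest called differences in overnight hypoxia, per array, on a log axis. Blue is the wild type and orange the arrays labelled ixr1 null, circles are A arrays, squares are B arrays, and open triangles at the bottom mark a signal of 0. RPP0, RPL27A, RPL25 and RPL17A are low on the 4 hypoxia arrays and higher on the shift arrays, whose cultures did not go through overnight hypoxia. RPL4A, RPL35B and RPL1B are highest under the null label in hypoxia.

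RPP0 and RPL27A were called in the same direction in each genotype. In the 53 genes tested in both, which share no array between the genotypes, the hypoxia differences had a Pearson r of 0.76 and a Spearman rho of 0.23. Over all 4844 probes tested in both, the values were 0.65 and 0.42. Of the genes, 30 (56.6%) went the same way in the 2 genotypes, against 60.1% of all probes. A change of over 16-fold in the same direction in each was seen in 1 gene, RPP0 (1.89%), and in 2.39% of all probes.

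**Figure D3:**
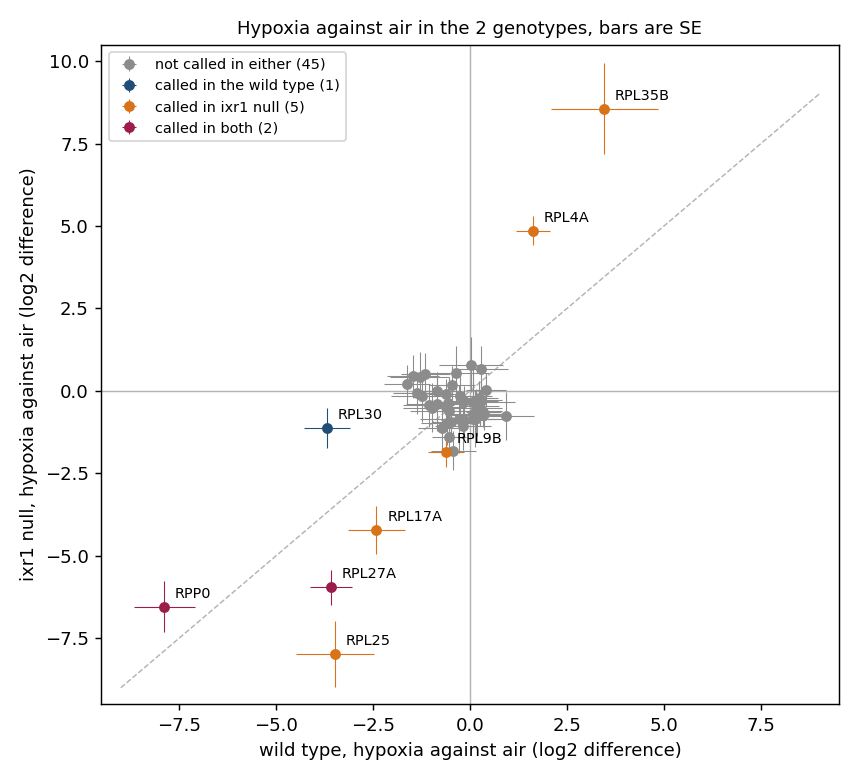
Log2 difference of overnight hypoxia against air for each large subunit gene, in the wild type (x axis) and in cells labelled ixr1 null (y axis), with SE bars from limma and the line of equal change dashed. The cloud of 45 genes called in neither sits near 0, RPP0 and RPL27A are far below 0 on both axes, and RPL4A and RPL35B are above 0 on both.

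After 3 hours of nitrogen no large subunit gene passed the test against air in either genotype. None of the 51 genes tested in the wild type was called, where 0.214% of all probes were called higher and 0.257% lower. An unadjusted limma p under 0.05 was found for 10 of these genes, beside 668 of 4672 probes. None of 48 was called under the null label, where 0.449% of all probes were higher and 0.0898% lower. There 1 gene had an unadjusted p under 0.05, beside 260 of 2228 probes. The median log2 difference was 0.26 in the wild type (all probes 0.04) and 0.20 under the null label (all probes 0.30). The null value turned to -0.37 with median centring and -0.59 with quantile normalization of positive values alone, where the median of all probes was -0.78 and -0.82, so no direction is given for it.

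The wild type gene with the smallest p was RPL29. Its signal was 1.48 and 1.84 in air and 29.0 and 17.2 after the shift, so the groups were far apart. The log2 difference was 3.72 ± 0.73 (limma adjusted p = 0.0811), and its adjusted p ranged from 0.00877 to 0.465 over the alternatives tried. RPL25 followed, with 20.3 and 13.4 after the shift against 1.68 and 3.12 in air and a log2 difference of 2.82 ± 1.00 (limma adjusted p = 0.260). RPL19B (YBL027W) gave 36.1 and 14.0 against 6.98 and 8.11, a difference of 1.34 ± 0.48 (limma adjusted p = 0.264). The others with an unadjusted p under 0.05 were RPL11A, RPL13B, RPL22A, RPL24A, RPL27A and RPL35A, between 1.17 and 1.54, and RPL4A at -1.19.

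RPL1B had the smallest p under the null label, with 0.0436 and 0.469 after the shift against 0.144 and 0.0634 in air. It had a log2 difference of 2.66 ± 0.63 after normalization (limma adjusted p = 0.113), although its deposited A value lies below both air values: quantile normalization with zeros included raises dim signals on an array with many zeros. RPL30 and RPL24A came next, at 1.15 ± 0.60 and 0.78 ± 0.44 (limma adjusted p = 0.500 and 0.530). For RPL30 the sign turned with median centring (-0.29) and with quantile normalization of positive values alone (-0.24).

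Set against overnight hypoxia, the shift arrays had several of the same genes at higher levels, through arrays that also enter the comparison of hypoxia with air. Of 52 genes in the wild type 4 were higher (RPP0, RPL25, RPL27A and RPL30) and 1 was lower (RPL4A), with 4.64% of all probes higher and 3.19% lower. The replicate block gave 6 higher and 2 lower, adding RPL11A (1.78), RPL17A (2.21) and RPL1B (-2.07). Of 48 genes under the null label 7 were higher (RPL25, RPP0, RPL27A, RPL17A, RPL9B, RPL30 and RPL27B) and none was lower, with 11.8% of all probes higher and 2.6% lower. The median log2 difference was 0.66 in the wild type (all probes 0.04) and 0.69 under the null label (all 2229 probes tested 0.61). Above 0 lay 76.9% of the genes and 51.8% of all probes in the wild type, and 79.2% and 71.2% under the null label. RPL4A was not among these 48, because it was at 0 on the A array of the null shift. Its signal was 0.209 on the B array, against 7.31 and 8.16 in null hypoxia. With zeros kept and values floored it was called lower there (-6.13, limma adjusted p = 0.00142). RPP0 gave 16.1 and 8.56 after the wild type shift against 0.0278 and 0.0402 in hypoxia, a log2 difference of 8.33 ± 0.78 (limma adjusted p = 0.00107). RPL25 differed by 6.30 ± 1.00 in the wild type and 8.36 ± 1.00 under the null label (limma adjusted p = 0.0053 and 0.000603), and RPL27A by 4.88 ± 0.54 and 5.91 ± 0.54 (limma adjusted p = 0.00119 and 0.000134).

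The smaller differences between shift and hypoxia were less firm. RPL27B (YDR471W) gave 1.21 and 1.77 after the null shift against 0.516 and 0.609 in hypoxia, a log2 difference of 1.88 ± 0.44 (limma adjusted p = 0.0186). RPL30 differed by 2.26 ± 0.60 there (limma adjusted p = 0.0329). RPL27B was 0.98 and RPL30 0.61 with median centring, and both calls were lost without any 1 of the 4 arrays involved. RPL4A gave 0.221 and 0.285 after the wild type shift against 2.13 and 1.98 in hypoxia, -2.82 ± 0.44 (limma adjusted p = 0.00664), and its call was lost without either wild type hypoxia array (adjusted p = 0.0634 and 0.0536) and with zeros kept and values floored (adjusted p = 0.082). Without the B array of wild type hypoxia the calls of RPL25 and RPL30 were lost too (adjusted p = 0.0539 and 0.0662) and 2 genes remained called. Without the B array of null hypoxia 4 of the 7 null calls were kept, and those of RPL17A, RPL27B and RPL30 were lost. RPL17A was also lost with median centring (2.65, adjusted p = 0.124) and with quantile normalization of positive values alone (2.47, adjusted p = 0.104). RPL9B, at 2.45, was lost under the same 2 scalings (1.46 and 1.35, adjusted p = 0.211 and 0.166).

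The 2 shift arrays of a genotype differed more than replicates of the other groups. Over the large subunit genes the Spearman correlation of A with B was 0.915 to 0.975 in the air and hypoxia groups and 0.777 and 0.770 in the shift groups. The median gap between A and B was 0.27 to 0.51 log2 units in the air and hypoxia groups and 0.90 and 1.07 in the shift groups. The whole array had the same order. Over all probes the correlation was 0.83 to 0.917 against 0.692 and 0.59, and the gap 0.44 to 0.67 against 0.99 and 0.92. RPL28 gave 1.99 on A and 13.1 on B in the wild type and 1.23 and 11.5 under the null label. RPL12B (YDR418W) gave 1.36 and 5.86, then 0.303 and 9.34. Both were lower on A in each genotype.

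Of 48 genes with a value on all 4 shift arrays, 27 were higher on A in the wild type and 3 under the null label, and 20 were higher on B in each. The A minus B differences of the 2 genotypes had a Pearson r of 0.55 over these genes and 0.65 over 2231 probes, a description that shares the letter of the array. The summed signal of the large subunit genes was 5.54% and 5.10% of the array on wild type shift A and B, and 2.41% and 5.50% under the null label. Means of the shift groups therefore carry a spread between A and B that moves many of these genes at a time, and its source was not tested.

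**Figure D4:**
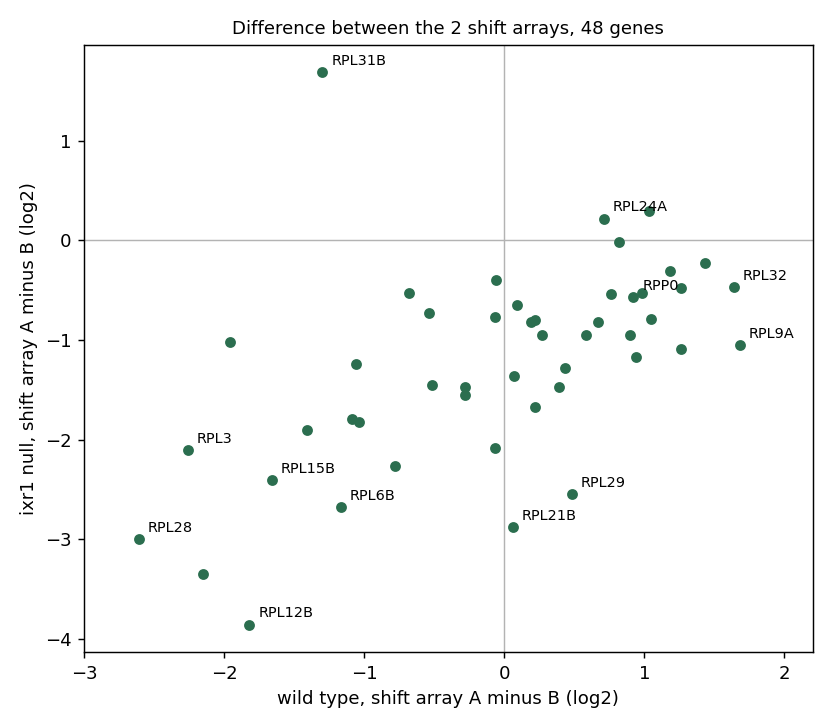
Difference between shift arrays A and B (log2, A minus B) for the 48 large subunit genes with a value on all 4 shift arrays, in the wild type (x axis) and under the ixr1 null label (y axis). RPL28, RPL12B and RPL3 lie at the lower left, below 0 in each genotype, and 45 of the 48 genes lie below 0 on the y axis.

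No large subunit gene differed between the genotypes by the test in any condition. None of the 53 genes tested in air was called, nor of the 54 in hypoxia or the 48 after the shift. Over all probes limma called 0.0% higher and 0.0% lower in air, 0.0186% each way in hypoxia, and 0.0% each way after the shift. An unadjusted limma p under 0.05 was reached by 4, 6 and 4 of the genes. Over all probes it was reached by 336 of 5043, 718 of 5379 and 127 of 2231. With 2 arrays a group, a missed threshold does not show that the levels were alike.

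The genes with the smallest p in hypoxia were among those that moved with hypoxia. Both comparisons use the same hypoxia arrays and the same spread per gene, so this overlap is partly built in. RPL4A was 2.02 ± 0.44 log2 units higher under the null label (limma adjusted p = 0.143), RPL25 was at -4.0 ± 1.0 (adjusted p = 0.181) and RPL27A at -1.88 ± 0.54 (adjusted p = 0.212). In each the arrays of the genotypes did not overlap. The size for RPL25 rests on the dim B array of null hypoxia: it was -2.29 with the floor, -2.29 without that array and -5.7 without the A array. In air the smallest p belonged to RPL7B (YPL198W) at -1.87 ± 0.59, RPL30 at -1.62 ± 0.60 and RPL4A at -1.21 ± 0.44 (limma adjusted p = 0.635 for each). After the shift RPL29 was at -3.66 ± 0.73 (limma adjusted p = 0.492), with 0.482 and 5.17 under the null label against 29.0 and 17.2 in the wild type. RPL1B was at 2.43 ± 0.63 and RPL11A at -1.30 ± 0.49 (limma adjusted p = 0.813 and 0.831). No direction is given for RPL1B, which was at -0.10 with median centring and 0.28 with quantile normalization of positive values alone.

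The interaction of genotype with each low-oxygen condition gave no call either. For hypoxia none of 53 genes was called, and 0.0% of all probes were called in either direction. An unadjusted limma p under 0.05 was found for 5 of the genes and for 672 of 4844 probes. RPL4A had 3.23 ± 0.62, RPL25 -4.50 ± 1.41 and RPL27A -2.38 ± 0.77 (limma adjusted p = 0.123, 0.223 and 0.233), and RPL25 was at -2.8 with the floor and -2.79 without the B array of null hypoxia. For the shift none of 47 was called, and 0.0% of all probes were called in either direction. The unadjusted p was under 0.05 for 2 of the genes and for 161 of 2178 probes. RPL29 had -4.08 ± 1.03, RPL22A -1.95 ± 0.83 and RPL11A -1.25 ± 0.69 (limma adjusted p = 0.393, 0.671 and 0.734). So RPL25, RPL17A, RPL4A and RPL35B passed the test in hypoxia under the null label and, with the main settings, not in the wild type. All were called in the wild type with the replicate block, and RPL25, RPL17A and RPL4A also without the dimmest 25% of probes. A difference between the genotypes was not shown for them. Without the B array of the null shift, RPL29 was called between the genotypes after the shift (-4.93, adjusted p = 0.032) and in the interaction with the shift (-5.35, adjusted p = 0.0498). Without the A array of the null shift the same values were -2.38 (adjusted p = 0.956) and -2.8 (adjusted p = 0.667).

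Within the A/B pairs most copies lay close together in hypoxia. Of the wild type pairs 15 of 18 tested had the same direction, with a median gap between the copies of 0.26 log2 units, and under the null label it was 15 of 19 with a median gap of 0.29. The pairs that came apart by over 2 units were RPL4, RPL27 and RPL35 in the wild type and these 3 with RPL1 under the null label. Differences between copies are described and were not tested. Most large subunit genes lay near air, and gaps in other pairings of them were not counted. Closeness in hypoxia is therefore not shown to be particular to copies.

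RPL24, RPL20 and RPL19 had the steadiest ratios. The SD over the arrays of the log2 ratio of A over B was 0.19, 0.25 and 0.27, and the signals of the copies had a Pearson r of 0.94, 0.90 and 0.91 over the 12 arrays. In the wild type RPL24A gave 5.42 and 7.43 in air and 19.4 and 11.8 after the shift, and RPL24B gave 5.53 and 6.76, then 18.3 and 9.47. The copies of RPL19 encode the same protein. Over 19 pairs with enough arrays the median r was 0.49, with a range from -0.49 for RPL4 to 0.94 for RPL24, and over 1412 other pairings of large subunit genes it was 0.30, with quartiles of -0.02 and 0.59. Of the 19 pairs, 12 lay above the median of the other pairings. These correlations share arrays and their depth of signal, and copies of like sequence can also share signal through their probes.

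RPL35, RPL17 and RPL4 had the least steady ratios, with SDs of 3.35, 2.82 and 2.08. Dim signals enter the first 2: RPL35B was under the 10th percentile on 4 of its 11 arrays with a signal and RPL17B on 4 of 5, so the sizes of these ratios and their order are not fixed. For RPL35, whose copies encode the same protein, the log2 ratio of A over B was 10.7 and 6.70 in air under the null label and 0.40 and -0.98 in hypoxia. RPL35A (YDL191W) itself gave 3.30 and 2.64 in air and 2.34 and 1.46 in hypoxia under that label. Its log2 difference was -0.46, so the ratio turned on RPL35B. For RPL4 the ratio under the null label went from -4.40 and -4.13 in air to 0.82 and 1.11 in hypoxia. RPL4B (YDR012W) was there at 6.31 and 5.07 in air and 4.02 and 3.5 in hypoxia. In the wild type the RPL4 ratio was -3.41 and -3.44 in air and -1.29 and -1.17 in hypoxia, so RPL4B kept the higher signal. The RPL17 ratio rests on 5 arrays, since RPL17B (YJL177W) was at 0 on the other 7 and reached no more than 0.165.

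In RPL27 the copies differed from air in the same direction by unequal amounts. The wild type signal of RPL27B was 0.806 and 0.830 with air and 0.762 and 0.532 in hypoxia, with a log2 difference of -0.55 beside -3.58 for RPL27A. For the null label it was -1.39 ± 0.44 (limma adjusted p = 0.0789) beside -5.96. The r of the copies over the arrays was 0.91 while the SD of their ratio was 2.01, so the copies were high and low on the same arrays with unequal steps. In RPL9 the copies had differences of -1.11 (RPL9A) and -1.85 (RPL9B) under the null label, and RPL9A was not called. In RPL1 the difference was 0.17 for RPL1A beside 3.83 for RPL1B under the null label.

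**Figure D5:**
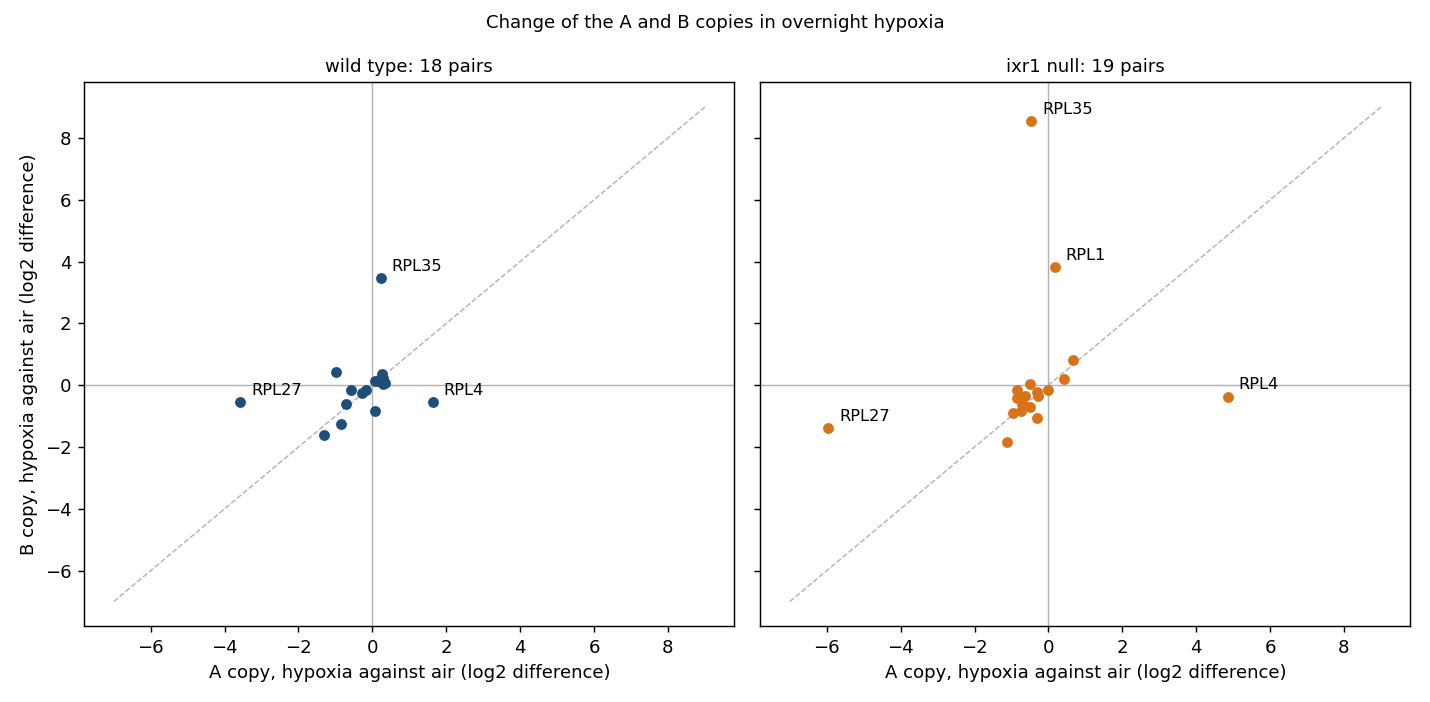
Log2 difference of overnight hypoxia against air for the A copy (x axis) and the B copy (y axis) of each pair, in the wild type (left, 18 pairs) and under the ixr1 null label (right, 19 pairs), with the line of equal change dashed. Most pairs lie near 0 and the line, and RPL4, RPL27 and RPL35 lie off it in each panel, joined by RPL1 on the right.

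The shift gave less even pairs. Against air the same direction was seen in 9 of 17 wild type pairs and 8 of 14 null pairs, with median gaps of 0.68 and 0.60, and the widest gap was 1.80 in RPL14 and 2.47 in RPL1. The gap in RPL1 depends on the scaling, since RPL1B at 2.66 was at 0.09 with median centring, 0.31 with quantile normalization of positive values alone and 0.58 on the deposited scale. RPL7A (YGL076C) and RPL7B could not be tested after the shift, because both were at 0 on the A arrays. RPL16B (YNL069C) was at 0 on 7 arrays and was tested in neither comparison with air.

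Related gene lists give the setting. Of the 21 large subunit genes outside the 60, 15 had a probe, and their hypoxia medians were -0.35 and -0.84, with 1 gene lower of 14 in the wild type and 2 of 15 under the null label. RPP2A (YOL039W), which encodes an acidic protein carried by Rpp0, gave wild type signals of 6.19 and 5.29 in air and 0.183 and 0.146 in hypoxia, a log2 difference of -5.44 ± 0.59 (limma adjusted p = 0.000686). It was -4.43 ± 0.59 under the null label (limma adjusted p = 0.00138). RPL39, a short protein of the exit tunnel, was lower under the null label at -5.31 ± 0.99 (limma adjusted p = 0.0071). Its signal on the A array of null hypoxia (0.045) lay under the 10th percentile of that array. RPP2A and RPL39 were higher after the shift than in hypoxia in each genotype, RPP2A by 4.74 and 4.05 and RPL39 by 3.86 and 5.54.

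The small subunit genes had medians close to those of the large subunit, -0.22 and -0.58 in hypoxia and 0.48 and 0.12 after the shift against air. In hypoxia 2 of 49 were lower and 1 was higher in the wild type, and 3 of 50 were lower under the null label. RPS20 was lower in each genotype (-4.55 ± 0.61 and -2.98 ± 0.61), RPS12 was lower in the wild type (-5.90 ± 1.20), RPS28A was lower under the null label (-6.94 ± 1.13), and RPS8B was higher in the wild type (6.46 ± 1.10). Signals under the 10th percentile of their arrays entered RPS20 in wild type hypoxia (0.0435), RPS28A in null hypoxia (0.0136) and RPS8B in wild type air (0.00277). The sizes of these differences are therefore not fixed. Against hypoxia after the shift, RPS20 was higher in each genotype (3.36 and 4.17), RPS3 was higher under the null label (1.94) and RPS8B was lower in the wild type (-4.97).

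The regulators and partners of these genes showed few calls. Of 15 regulators of ribosomal protein genes, which include RAP1, FHL1, IFH1 and SFP1, none was called against air in any of the 4 comparisons, with 6 to 13 tested. CRF1, a corepressor of ribosomal protein genes in yeast, was not among those tested, because it was at 0 on both air B arrays. It gave 0.111 and 0.1 on the air A arrays of the wild type and the null label, and 3.89 and 5.24 in hypoxia under the null label. It was lower after the wild type shift than in hypoxia (-2.75 ± 0.52, limma adjusted p = 0.0272), with 1.24 and 1.46 in hypoxia and 0.186 and 0.168 after the shift. Of 21 chaperones and late assembly factors, RRB1, which escorts Rpl3, was lower in wild type hypoxia (-3.59 ± 0.85, limma adjusted p = 0.0305), while RPL3 itself was not called. Both RRB1 signals in wild type hypoxia, 0.0285 and 0.0216, lay under the 10th percentile of their arrays. Of 10 elongation factor genes, TEF1 was lower after the null shift than in hypoxia (-2.07 ± 0.59, limma adjusted p = 0.0454), and none was called against air.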

How the data were processed

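The authors deposited intensity values on a linear scale, 1 per open reading frame and array, which were used as given. Per the labels' protocols, cDNA was labelled with 32P. Not given in the sources used here were the image software, background subtraction, scaling and spot averaging. Gene symbols came from the NCBI RefSeq gene table (assembly R64), which matched 5571 of 5974 probe names.

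Medians of positive log2 values lay up to 1.49 apart between arrays. All 12 arrays were therefore quantile normalized, zeros included. Zeros were then set to missing and the rest log2 transformed. Group means were fitted over all 12 arrays with lmFit and eBayes of limma 3.58.1 in R 4.3.3. Probes with a value on every array of the groups compared were tested, with Benjamini-Hochberg adjustment over those probes and a threshold of 0.05. There were 11 comparisons. The prior variance was taken over all probes, and taking it over tested probes alone was added as an alternative after both sets of calls had been seen. With 2 arrays a side, the smallest two-sided p of an exact permutation test is 0.333. Summaries used Python 3.11.15 with pandas 2.3.3. The fit was also run on simulated data with the same spread on every array and changes set in wild type hypoxia alone. That setting lacks the wider spread of the shift arrays, so no conclusion is drawn from it.

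The members are listed by gene name alone, but they, the 5 other gene lists and the named-gene rule were chosen with earlier results of these data known. The text names the genes past the threshold in a comparison or, with none, the 3 of smallest p. It also names pairs with exactly 1 copy called, the 10 genes without a listed paralog and the 3 pairs with the widest and the 3 with the narrowest ratio. Of each other list it names the 2 of smallest p in each direction past the threshold, and DAN1, IXR1 and TDH3 as checks. Alternatives changed the scaling, the handling of zeros, a filter on the dimmest 25% of probes, a replicate block and the arrays left out. A search of promoters for a Rap1-type motif and protein identity within pairs were planned and not run, since no sequences were used here. The values of 1 gene are counted in the totals and not reported here. The labels give the letters A and B and no shared batch or day. Deviations of same-lettered arrays of the 2 genotypes from their group means had correlations of 0.257 (air), 0.189 (hypoxia) and 0.648 (shift), so the letters were treated as a possible pairing and the replicate block is given where it changed a call. Precision is limited by the number of arrays.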

Additional observations from a re-analysis of the deposited data

Results flagged for a closer look

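RPL12A, RPL19B, RPL24A and RPL29 moved in opposite directions in the 2 genotypes in overnight hypoxia, with arrays that, after quantile normalization, did not overlap the air arrays in either. RPL12A was at 0.34 in the wild type and -0.64 under the ixr1 null label, a difference (null minus wild type) of -0.97 (limma interaction adjusted p = 0.521). RPL19B was at 0.35 and -0.69, a difference of -1.03 (limma adjusted p = 0.523). RPL24A was at 0.29 and -0.31, a difference of -0.60 (limma adjusted p = 0.714). RPL29 was at 0.93 and -0.76, a difference of -1.70 (limma adjusted p = 0.493). For the shift against hypoxia, RPL12A was at -0.23 and 0.69, a difference of 0.91 that was not tested. On the deposited scale the wild type arrays of RPL24A in hypoxia (7.41 and 7.65) and air (5.42 and 7.43) overlapped, as did those of RPL12A after the shift (4.96 and 4.35) and in hypoxia (5.18 and 4.39). None of the 4 tested differences passed the threshold. Over all probes 60.1% went the same way in the 2 genotypes. The share of all probes that meet the same rule was not counted, so these genes are not shown to stand out from the array.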

How the results depend on the processing

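Counts are of large subunit genes called. In wild type hypoxia against air the 3 calls became 5 on the deposited scale (1 higher, 4 lower), 6 without the dimmest 25% of probes, 5 with the prior from tested probes alone and 7 with the replicate block, and stayed at 3 without any 1 array. In the wild type shift against air the 0 calls became 1 without the dimmest 25%, 1 with the tested prior, 1 without both shift A arrays and 7 without both shift B arrays, and stayed at 0 without any 1 array. In the wild type shift against hypoxia the 5 calls became 8 without the dimmest 25%, 8 with the replicate block, 9 without both shift A arrays and 11 without both B arrays, and ran from 2 to 6 without 1 array, with 2 when the B array of wild type hypoxia was left out. Under the null label, hypoxia against air kept 6 to 8 of 8 calls (7 without any 1 array). The shift against air went from 0 to 5 without both shift B arrays and stayed at 0 without any 1 array. The shift against hypoxia went from 7 to 3 with median centring, 3 with quantile normalization of positive values alone and 12 without both B arrays (6 higher, 6 lower), and ran from 4 to 6 without 1 array, with 4 when the B array of null hypoxia was left out. Null against wild type after the shift, and the interaction with the shift, had 1 call instead of 0 without both shift B arrays, and 0 to 1 without 1 array, the 1 when the B array of the null shift was left out. The other comparisons kept 0 calls throughout. The replicate block added these 4 and 3 calls and changed no other call of these genes.

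RPL1B after the shift, null against wild type, turned from 2.43 to -0.10 with median centring, and RPL30 in the null shift against air from 1.15 to -0.29, or -0.24 with quantile normalization of positive values alone. The cause was not tested. Of 277 alternatives for called genes, 241 kept the call, 36 lost it and 0 turned the direction. Calls over all probes ranged, over the alternatives and left-out arrays, from 268 to 774 around 522 in wild type hypoxia, 371 to 925 around 634 in null hypoxia, 8 to 521 around 22 in the wild type shift and 6 to 378 around 12 in the null shift, each against air. Against hypoxia they ranged from 148 to 692 around 383 (wild type shift) and 232 to 836 around 321 (null shift). For null against wild type in hypoxia they ranged from 0 to 44 around 2 and after the shift from 0 to 7 around 0. For the interactions they ranged from 0 to 21 (hypoxia) and 0 to 4 (shift) around 0. Few arrays and dim signals limit these results, and with 1 array left in a group it is assumed to vary like the other groups.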
